A study of Homo sapiens with 12 samples.

Results

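The genes of the canonical histone clusters were measured on expression arrays in 4 KMS11 lines. KMS11, derived from human multiple myeloma, carries the t(4;14) translocation, which places 1 allele of MMSET (now NSD2), a methyltransferase of lysine 36 on histone H3, under immunoglobulin heavy chain control. WT is the parental line with both alleles. NTKO keeps the overexpressed allele and has lost the wild-type one, so WT and NTKO are MMSET-high. TKO1 and TKO2 are clones whose overexpressed IGH-MMSET allele was inactivated by homologous recombination, so they are MMSET-low. The labels name no treatment, and all lines had been grown in RPMI medium with serum. WT and NTKO are 1 line each, so a difference between genotypes and a difference between lines cannot be told apart. The pair of TKO clones shows only how far clones of the same genotype differ. Each line was hybridised to 3 Illumina arrays, 12 in all, and the labels do not say whether these came from separate cultures, so p-values measure the spread between arrays alone.

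Members were all probes whose symbol begins HIST1, HIST2 or HIST3, or in current names H1-, H2AC, H2BC, H3C or H4C. The array holds 74 such probes among 48803, for 67 genes with a probe of their own and 1 probe annotated to 2 H3 genes, which is not named further. Of these probes 70 lie in the clusters, and 4 probes lie elsewhere, those of H1-10, H1-8, H1-7 and H4C16. A probe was tested where its detection p-value, which sets it against negative control beads, was under 0.05 on each of the 3 arrays of any line. By this rule 36 histone probes of 33 genes and the 2-gene probe were tested, among 15596 probes in all. The other 38 fell short of this: 26 were detected on no array, and 12 on 1 to 4 arrays. Of the 36, 3 (H4C5, H2AC8 and the 2-gene probe) passed only through TKO arrays, so that they entered the test by way of the lines where they are high.

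Histones H2A, H2B, H3 and H4 form the protein core of the nucleosome, and H1 binds the linker DNA between nucleosomes. Most of their genes are short, lack introns and lie in clusters, the largest (HIST1) on chromosome 6 and the next (HIST2) on chromosome 1. They are transcribed mainly in S phase, when new DNA is packed, and most of their mRNAs end in a stem-loop bound by SLBP in place of a poly(A) tail. Some of the genes also give polyadenylated transcripts, above all in cells that differentiate or leave the cell cycle. RNA was labelled here with a kit that primes from the poly(A) tail. The amount of a histone mRNA and the share of it with a tail therefore cannot be told apart in these values, nor can, in bulk RNA, fewer cells in S phase and less histone RNA per cell.

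The promoters of 5 of the genes are printed because they stand for the arrangements found among the members that changed: an H2B gene of HIST1 with all 3 motifs searched (H2BC12), an H2A gene that shares its promoter with an H2B gene (H2AC6), an H2B gene of HIST2 (H2BC21), and the linker and H4 genes with the largest differences (H1-2 and H4C8). Each is the RefSeq sequence from 250 bases before the start of the gene to 50 after it, on build GRCh38.p14, 5′ to 3′ on the strand of the gene. H2BC12 lies at chr6:27146809-27147108 (minus strand), H2AC6 at chr6:26123922-26124221 (plus strand), H2BC21 at chr1:149886633-149886932 (minus strand), H1-2 at chr6:26056421-26056720 (minus strand) and H4C8 at chr6:26285485-26285784 (minus strand). Capitals mark matches, on either strand, to the octamer ATTTGCAT bound by POU2F1 (OCT1), to CCAAT and to the TATA box TATAAA, and neighbouring matches can overlap.
H2BC12: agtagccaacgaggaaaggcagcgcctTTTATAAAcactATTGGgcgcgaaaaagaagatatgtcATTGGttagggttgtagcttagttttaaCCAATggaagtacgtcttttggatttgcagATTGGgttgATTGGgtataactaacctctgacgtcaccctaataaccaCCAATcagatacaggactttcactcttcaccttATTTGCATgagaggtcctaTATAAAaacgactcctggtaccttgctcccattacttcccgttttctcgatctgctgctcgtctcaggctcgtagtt
H2AC6: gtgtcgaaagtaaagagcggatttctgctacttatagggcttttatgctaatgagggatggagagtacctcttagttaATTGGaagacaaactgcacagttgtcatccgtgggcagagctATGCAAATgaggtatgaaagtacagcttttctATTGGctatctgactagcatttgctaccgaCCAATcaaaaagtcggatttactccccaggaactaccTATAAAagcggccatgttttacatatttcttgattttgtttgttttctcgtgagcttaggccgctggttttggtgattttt
H2BC21: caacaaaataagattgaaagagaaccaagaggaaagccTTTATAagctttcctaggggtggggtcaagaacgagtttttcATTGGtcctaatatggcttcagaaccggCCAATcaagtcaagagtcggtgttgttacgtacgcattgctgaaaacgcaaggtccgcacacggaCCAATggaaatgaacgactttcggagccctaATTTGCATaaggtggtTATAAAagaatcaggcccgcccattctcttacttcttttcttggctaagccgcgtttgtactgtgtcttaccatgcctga
H1-2: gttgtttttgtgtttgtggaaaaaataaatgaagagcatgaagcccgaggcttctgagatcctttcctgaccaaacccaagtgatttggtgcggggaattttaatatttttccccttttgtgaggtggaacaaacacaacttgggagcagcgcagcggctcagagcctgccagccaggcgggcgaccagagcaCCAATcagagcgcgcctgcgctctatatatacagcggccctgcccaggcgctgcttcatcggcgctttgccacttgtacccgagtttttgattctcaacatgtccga
H4C8: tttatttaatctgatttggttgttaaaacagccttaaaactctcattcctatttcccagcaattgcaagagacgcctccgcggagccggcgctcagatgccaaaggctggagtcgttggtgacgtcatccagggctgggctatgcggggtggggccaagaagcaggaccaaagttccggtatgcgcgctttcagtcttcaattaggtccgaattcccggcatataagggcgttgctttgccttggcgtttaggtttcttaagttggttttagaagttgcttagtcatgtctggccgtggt
H2BC12 and H2BC21 each hold 1 octamer upstream of a TATA box, and the octamer of H2AC6 lies between CCAAT matches. H1-2 has 1 CCAAT match and neither other motif, and H4C8 has no match to any of the 3.

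Most of the tested histone probes were lower in NTKO than in TKO, and many in WT as well. In NTKO compared with TKO (the mean of both clones), 21 of 36 were lower and 1, H1-10, was higher at an adjusted p under 0.05 (limma, Benjamini-Hochberg over 15596 probes). Of all tested probes 13.8% were lower and 13.7% higher in this comparison. The 21 probes cover 18 genes and the 2-gene probe, and differences ran from −2.11 to −0.60. The median over the 36 histone probes was −0.81 on the log2 scale, against −0.06 over all tested probes, and 34 of the 36 were negative, as were 55.7% of all tested probes. In WT compared with TKO, 16 were lower and 0 higher (background 5.87% lower and 9.93% higher), and their median was −0.48 against −0.04. At an unadjusted p under 0.05, 1 histone probe was higher in WT, with no share of all tested probes counted at that threshold. All 16 were among the 21. Leaving aside the 3 probes that passed the filter only through TKO arrays, 19 of 33 were lower in NTKO and 14 in WT. These 3 probes are also among the 34 negative ones and count in both medians. With each array centred on its median in place of quantile normalisation, 8 of the 16 lost the WT call (limma, adjusted p = 0.0508 to 0.587), namely H2BC12, H2BC11, H2BC21, H2AC20 and both probes each of H2AC18 and H2BC5. Both comparisons use the same TKO arrays, so the WT values are set beside those of NTKO and do not stand as a second test.

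A group of 6 probes was lower in each of the 4 comparisons of WT or NTKO with TKO1 or TKO2, called the 4 pairs (the p tested was the highest of the 4): H1-2, H4C8, H3C4, H2BC12, H4C14 and 1 of the H2AC18 probes. None was higher in all 4 pairs. Among all tested probes 1.04% were lower and 3.37% higher in all 4 pairs at an adjusted p under 0.05. At an unadjusted p under 0.05, 16 histone probes were lower and 0 higher, a threshold at which the share of all tested probes was not counted. With median centring 1 of the 6 remained, and without WT replicate 1, 3 of them.

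The arrays themselves show how far the lines lay apart. Relative to the mean of the 6 TKO arrays, the median histone probe lay at −0.53, −0.40 and −0.48 on the WT arrays and at −0.68, −0.96 and −0.71 on the NTKO arrays. It lay at 0.23, 0.21 and −0.12 on the TKO1 arrays and at 0.03, −0.08 and −0.30 on the TKO2 arrays. Every MMSET-high array was thus below every TKO array, NTKO was below WT, and the nearest TKO array was replicate 3 of TKO2. The median of all tested probes stayed between −0.07 and 0.00 on all 12 arrays. The histone medians include the 3 probes that passed the filter only through TKO arrays.

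**Figure D1:**
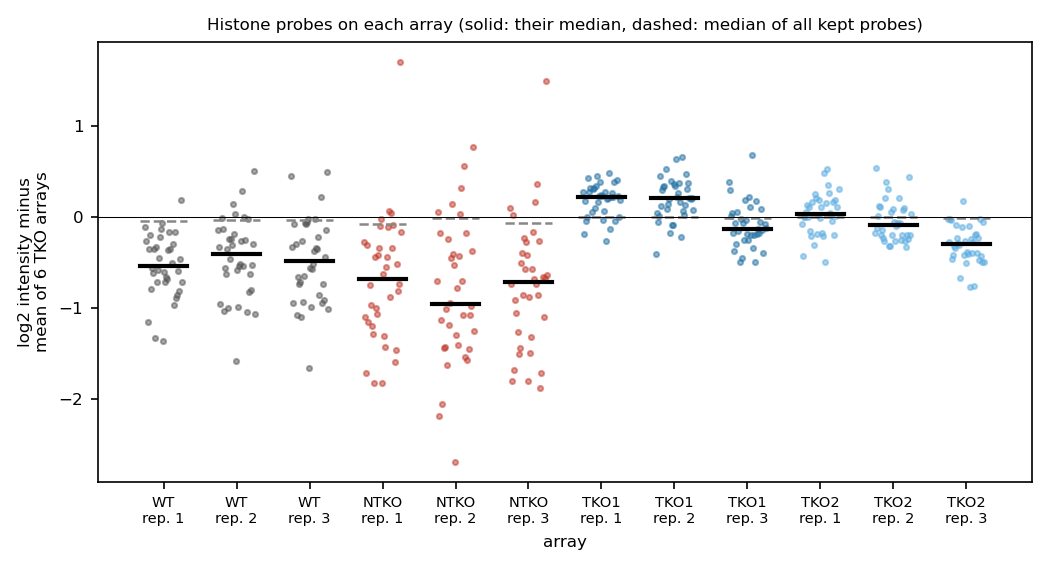
Log2 intensity of each of the 36 tested histone probes minus its mean over the 6 TKO arrays (y axis), for each of the 12 arrays (x axis). Solid lines are the median of the histone probes, from −0.96 on NTKO replicate 2 to 0.23 on TKO1 replicate 1, and dashed lines the median of all tested probes, which stays close to 0 throughout.

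NTKO replicate 2 stands apart from its line. It correlated at 0.945 to 0.948 with the other NTKO arrays, which correlated at 0.993 with each other, and at 0.974 to 0.978 with WT, while arrays within WT, TKO1 and TKO2 correlated at 0.984 to 0.995. It also had the fewest histone probes detected, 29 of 74 compared with 34 to 40 on the other arrays. Without it, 21 histone probes were again lower in NTKO than in TKO and 1 higher (background 22.9% lower and 22.9% higher).

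Complete separation of the arrays was frequent too. All 3 NTKO arrays lay below all 6 TKO arrays for 18 of the 36 histone probes, compared with 10.4% of all tested probes. For 16 histone probes all 6 WT and NTKO arrays lay below all 6 TKO arrays (background 4.35%). For 10 of them the NTKO arrays also lay below the WT arrays, which gives 3 levels without overlap (background 1.24%). The 10 were H1-2, H4C8, H3C4, H2BC6, H2BC11, H2BC12 and both probes each of H2AC18 and H2BC5. Line means rose in the order NTKO, WT, TKO (below both clones) for 23 of 36, compared with 18.8% of all tested probes. The 18, the 16 and the 23 include H4C5, and the 23 also H2AC8. Both passed the filter only through TKO arrays, where they are high.

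Of the linker histone genes, 6 of the clusters were on the array and H1-2 alone passed the filter. H1-2 encodes H1.2, a widely made linker variant whose mRNA also occurs with a poly(A) tail. Its log2 intensity was 11.35, 11.56 and 11.57 on the WT arrays, 10.80, 10.32 and 10.71 on the NTKO arrays, 12.69, 12.46 and 12.52 on the TKO1 arrays and 12.51, 12.39 and 12.49 on the TKO2 arrays. The levels of NTKO, WT and TKO did not overlap, and the clones lay together. H1-2 was 3.74-fold lower in NTKO than in TKO (−1.90 ± 0.12, SE; limma, adjusted p = 8.86e-09) and 2.02-fold lower in WT (−1.02 ± 0.12, adjusted p = 1.40e-05). H1-3 and H1-1 were each detected on 1 array, and H1-4, H1-5 and the testis gene H1-6 on none.

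H1-10, a linker histone gene outside the clusters that is transcribed throughout the cell cycle, went the other way. It lay at 11.48, 10.55 and 11.27 in NTKO, at 9.96, 10.29 and 10.27 in WT, at 9.77, 9.99 and 9.70 in TKO1 and at 9.88, 9.58 and 9.72 in TKO2. All NTKO arrays were above the rest, replicate 2 the least, while WT overlapped TKO. Its level in NTKO was 2.51-fold above TKO (1.33 ± 0.18, SE, adjusted p = 4.19e-05 with limma), while in WT the difference did not pass (0.40, adjusted p = 0.146). It was the only histone probe that passed as higher in NTKO than in WT (0.93, limma adjusted p = 0.0137, background 2.92% higher). That call was lost with median centring (0 probes higher), and without WT replicate 1, NTKO replicate 1 or NTKO replicate 3. Median centring brought WT minus TKO to 0.68 (adjusted p = 0.0291).

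Among the H2A genes, which encode a core histone that pairs with H2B, 8 probes were tested and 7 were lower in NTKO, 5 of them in WT as well. Both H2AC18 probes, in HIST2, showed the same 3 levels. The first read 10.53, 10.59 and 10.47 in WT, 9.82, 9.84 and 9.53 in NTKO, 11.64, 11.89 and 11.24 in TKO1 and 11.37, 11.15 and 11.18 in TKO2. It was 3.21-fold lower in NTKO (−1.68 ± 0.14, SE; limma, adjusted p = 2.90e-07) and 1.85-fold lower in WT (−0.88, adjusted p = 0.000324). The second differed by −1.54 (adjusted p = 1.83e-06) and −0.74 (adjusted p = 0.00300), but missed the threshold in all 4 pairs (adjusted p = 0.144). H2AC18 has a near-identical neighbour, H2AC19, so both genes may feed these probes.

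The other H2A genes differed less. H2AC6, whose transcripts can be polyadenylated, read 7.32, 6.02 and 7.16 in NTKO and 7.28, 7.03 and 6.995 in WT, below all TKO arrays (7.65 to 8.50), so that WT and NTKO overlapped and replicate 2 of NTKO was lowest. It differed from TKO by −1.24 in NTKO (SE 0.26; limma, adjusted p = 0.00218) and by −0.97 in WT (adjusted p = 0.0171). Without NTKO replicate 2 the first value was −0.83 (adjusted p = 0.00268).

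H2AC11, in the second group of HIST1 genes, lay at 5.40 to 6.11 in NTKO and 5.90 to 6.18 in WT, against 6.49 to 7.54 in TKO. It was 2.29-fold lower in NTKO (−1.20, limma adjusted p = 0.000255) and 1.86-fold lower in WT (−0.90, adjusted p = 0.00382), though a second H2AC11 probe was detected on no array.

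H2AC20, in HIST2, lay at 9.71 to 10.00 in NTKO and 10.00 to 10.37 in WT, just under the TKO range of 10.38 to 11.22. Its differences were −0.96 (limma, adjusted p = 0.000366) and −0.59 (adjusted p = 0.0186). H2AC17 lay at 5.72 to 6.06 in NTKO, 6.28 to 6.80 in WT and 6.03 to 7.45 in TKO, and H2AC21 at 5.28 to 5.65, 5.56 to 5.88 and 5.53 to 6.47. Both thus overlapped TKO and passed in NTKO alone (limma, −0.90, adjusted p = 0.0195, and −0.60, adjusted p = 0.0469). H2AC21 lost its call on leaving out any of 9 single arrays (adjusted p = 0.061 to 0.175), and H2AC17 without NTKO replicate 1 (−0.91, adjusted p = 0.056). H2AC8 did not pass (−0.37, adjusted p = 0.111).

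The H2B genes gave the largest number of tested probes, 12, of which 8 were lower in NTKO and 5 in WT. H2BC12, an H2B gene known to give polyadenylated mRNA, was the brightest of the called probes. It read 12.70, 12.82 and 12.78 in WT, 11.93, 11.94 and 12.04 in NTKO, 13.42, 13.58 and 13.47 in TKO1 and 13.15, 13.26 and 13.26 in TKO2. The SD was 0.06 within WT and within NTKO, and no 2 lines overlapped, the clones included. H2BC12 was 2.62-fold lower in NTKO than in TKO (−1.39 ± 0.08, SE; limma, adjusted p = 5.71e-09) and 1.51-fold lower in WT (−0.59 ± 0.08, adjusted p = 8.99e-05). With median centring the WT difference was −0.19 (adjusted p = 0.587) and no longer passed.

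H2BC5, also known for polyadenylated transcripts, was read by 2 tested probes and by another that was detected on no array. The brighter probe read 9.94, 9.94 and 9.85 in WT, 9.53, 9.06 and 9.45 in NTKO, 10.78, 10.80 and 10.44 in TKO1 and 10.51, 10.31 and 10.19 in TKO2. Both tested probes stepped down from TKO to WT to NTKO without overlap. Their differences were −1.16 and −1.30 in NTKO (limma, adjusted p = 1.51e-05 and 1.56e-05) and −0.59 and −0.66 in WT (adjusted p = 0.00779 and 0.00811).

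H2BC4 and H2BC6 were low in NTKO, while WT minus TKO did not pass. H2BC4 read 6.53, 6.56 and 6.005 in NTKO, 7.49, 7.56 and 7.39 in WT, 7.68, 8.13 and 7.51 in TKO1 and 7.74, 7.81 and 7.23 in TKO2. NTKO lay below all other arrays, whereas WT lay within the TKO range. H2BC4 was 2.50-fold lower in NTKO than in TKO (−1.32 ± 0.19, SE; limma, adjusted p = 8.49e-05) and differed by −0.21 in WT (adjusted p = 0.516). NTKO minus WT, which tests the MMSET-high lines against each other, was −1.11 (adjusted p = 0.00658).

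H2BC6 lay at 5.34 to 5.83 in NTKO, 6.14 to 6.50 in WT and 6.62 to 7.19 in TKO, again 3 levels, with differences from TKO of −1.27 (limma, adjusted p = 3.01e-05) and −0.47 (adjusted p = 0.0645).

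H2BC11, H2BC8 and H2BC21 completed the H2B probes that were lower. H2BC11, beside H2AC11, lay at 8.40 to 9.07 in NTKO, 9.09 to 9.15 in WT and 9.32 to 10.05 in TKO, and differed by −0.94 (limma, adjusted p = 0.000838) and −0.58 (adjusted p = 0.0310). The WT call of H2BC11 was lost on leaving out any of 7 single arrays (adjusted p = 0.0592 to 0.114) and with median centring (−0.36, adjusted p = 0.234). H2BC8 lay at 5.72 to 5.92 in NTKO and 6.11 to 7.12 in TKO, with WT (6.13 to 6.54) inside the TKO range, and differed by −0.96 in NTKO (adjusted p = 0.00590) and −0.49 in WT (adjusted p = 0.178). For H2BC21, the H2B gene of HIST2 with a polyadenylated form, NTKO (7.97, 7.40 and 7.82) and WT (7.89, 7.68 and 7.57) overlapped each other below TKO (8.28 to 8.86). Its differences were −0.75 (limma, adjusted p = 0.00216) and −0.77 (adjusted p = 0.00248). H2BC7, H2BC9, H2BC14 and H2BC15 gave −0.39 to −0.16 in NTKO and did not pass.

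For H3, the core histone whose lysine 36 MMSET methylates, 9 probes were tested and only 2 were lower in NTKO, the same 2 as in WT. H3C4 read 5.46, 5.79 and 5.69 in WT, 4.96, 5.17 and 5.35 in NTKO, 7.11, 7.33 and 6.64 in TKO1 and 6.59, 6.53 and 6.56 in TKO2. The 3 levels did not overlap, but NTKO lay at the edge of detection, with 2 of 3 arrays detected. H3C4 was 3.10-fold lower in NTKO (−1.63 ± 0.18, SE; limma, adjusted p = 4.67e-06) and 2.21-fold lower in WT (−1.14, adjusted p = 0.000224). RefSeq gives H3C4 and its neighbour H2AC7 the same start, so their transcripts overlap, and the H2AC7 probe itself was detected on no array. The 2-gene probe lay at 4.57 to 5.66 in NTKO, 4.75 to 5.10 in WT and 5.32 to 6.13 in TKO (−0.68, limma adjusted p = 0.0313, and −0.93, adjusted p = 0.00805). It was detected on 2 NTKO arrays, 1 WT array and all TKO arrays, so that its MMSET-high values lie near background. Without NTKO replicate 2 its NTKO value was −0.40 (adjusted p = 0.123), and the call was also lost on leaving out NTKO replicate 3 or any of TKO1 and TKO2 replicates 1 and 2 (adjusted p = 0.0547 to 0.080).

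The other 7 H3 probes did not pass in either comparison and gave −0.59 (H3C3) to 0.32 (H3C13) in NTKO. Without NTKO replicate 2, H3C3 passed (−0.92, limma adjusted p = 0.00331), and on that array H3C3 (6.46) stood above the other NTKO arrays (5.31 and 5.68).

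In NTKO minus TKO the H4 genes held both the largest difference among the 36 histone probes (H4C8) and the one nearest to 0 (H4C3). H4C8 read 7.02, 6.80 and 6.72 in WT, 6.56, 5.68 and 6.57 in NTKO, 8.62, 8.75 and 8.20 in TKO1 and 8.37, 8.47 and 7.87 in TKO2. All MMSET-high arrays lay below all TKO arrays, with NTKO replicate 2 lowest. H4C8 was 4.31-fold lower in NTKO (−2.11 ± 0.21, SE; limma, adjusted p = 2.21e-06) and 2.89-fold lower in WT (−1.53 ± 0.21, adjusted p = 8.20e-05), and −1.82 remained without NTKO replicate 2. A second H4C8 probe was detected on no array.

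H4C3, which encodes the same H4 protein, was bright in all lines, with 79 of the tested probes brighter and an upper end of 14.18 on each array after quantile normalisation. It read 13.31, 13.65 and 13.58 in WT, 13.34, 13.48 and 13.68 in NTKO, 13.62, 13.67 and 13.71 in TKO1 and 13.66, 13.67 and 13.62 in TKO2. The lines overlapped, and the differences were −0.15 ± 0.09 (SE; limma, adjusted p = 0.244) in NTKO and −0.14 (adjusted p = 0.344) in WT, which turned to 0.06 and 0.26 with median centring. The deposited export does not mark saturated probes, so small differences at this intensity do not show that its RNA was equal between the lines.

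H4C14, in HIST2, read 7.92, 7.84 and 8.03 in WT, 8.55, 7.35 and 8.04 in NTKO, 9.11, 8.91 and 8.71 in TKO1 and 8.93, 8.97 and 8.71 in TKO2. WT and NTKO overlapped, both below TKO, with differences of −0.91 (limma, adjusted p = 0.00346) in NTKO and −0.96 (adjusted p = 0.00349) in WT. Without NTKO replicate 2, its lowest array, the NTKO value was −0.59 (adjusted p = 0.00506). H4C15 is a near-identical copy of it, so the source of this signal within the pair is uncertain. H4C5 lay at 4.63 to 5.42 in NTKO, 4.88 to 5.36 in WT and 5.51 to 6.20 in TKO. It was lower in both (−0.86, limma adjusted p = 0.00472, and −0.70, adjusted p = 0.0257). Detection was on only 1 NTKO and 2 WT arrays, against all 6 TKO arrays, so these differences are taken from values near background. The WT call was lost with the authors' processed values, without model-based background correction and without the detection filter (limma, adjusted p = 0.0519 to 0.0521). H4C12 did not pass (−0.16, adjusted p = 0.631).

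**Figure D2:**
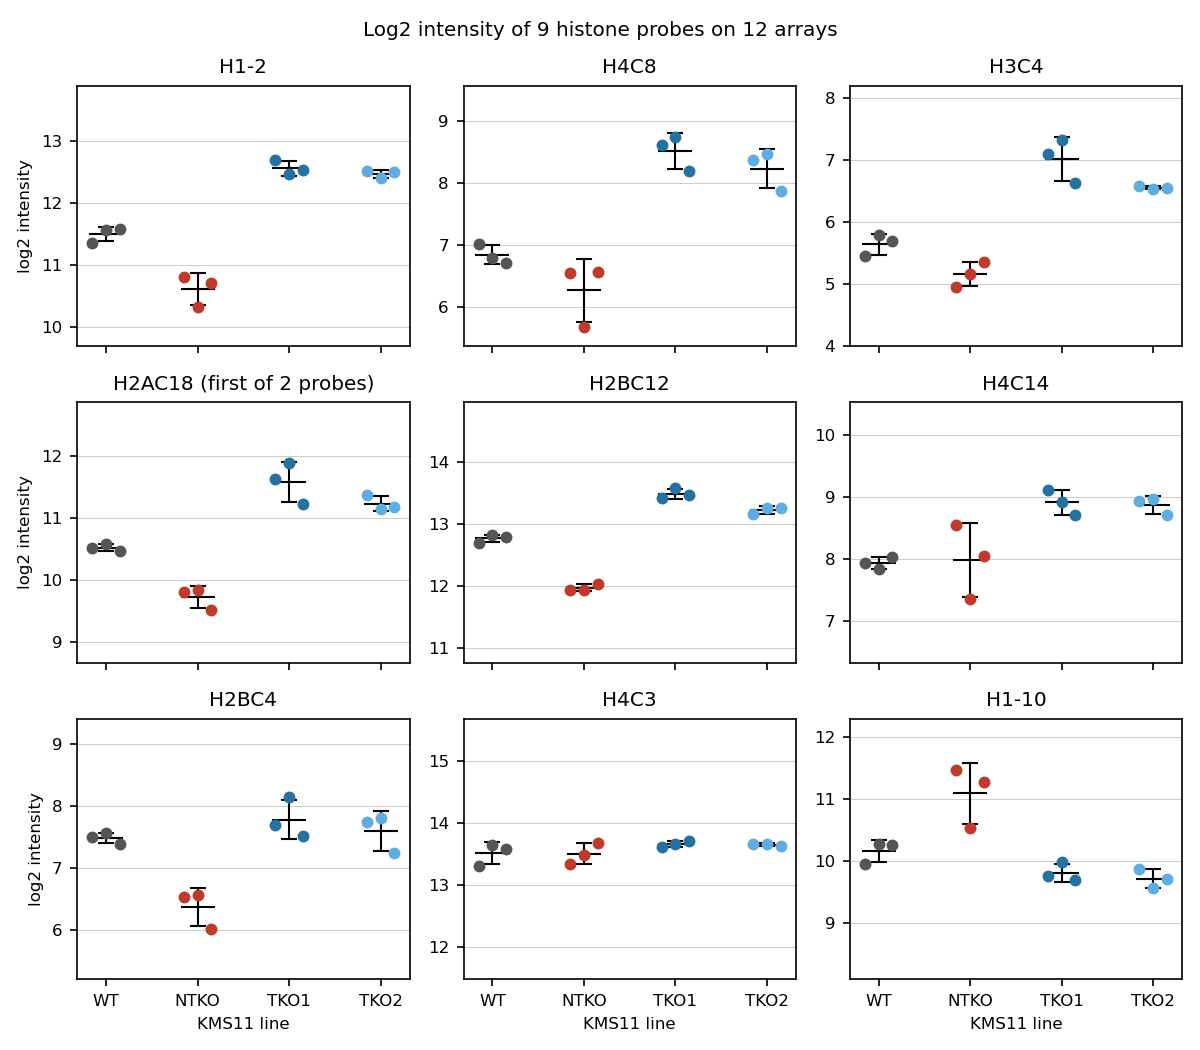
Log2 intensity (y axis, each panel spanning the same range of log2 units) of 9 histone probes on the 3 arrays of each KMS11 line (x axis); points are arrays, horizontal bars the mean and whiskers the SD. The 6 probes lower in all 4 pairs come first, followed by H2BC4, low in NTKO only, H4C3, which did not pass, and H1-10, higher in NTKO.

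By class, the median NTKO minus TKO difference of the tested cluster probes was −1.08 for H2A, −0.95 for H2B, −0.86 for H4 and −0.32 for H3, with the single H1 probe at −1.90. In WT minus TKO the medians were −0.67 for H2A, −0.48 for H2B, −0.70 for H4 and −0.25 for H3. Both H4 medians are the values of H4C5, which passed the filter only through TKO arrays and lies near background. The classes were not tested against each other. Calls also went with brightness: of the 15 histone probes with a mean log2 intensity above 7, 13 were lower in NTKO, and of the 21 below it, 8 were. Among all tested probes the shares were 14.6% above that level and 12.8% below it. The offset of 16 added before taking logs shrinks the differences of dim probes, and its part in this split was not tested.

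**Figure D3:**
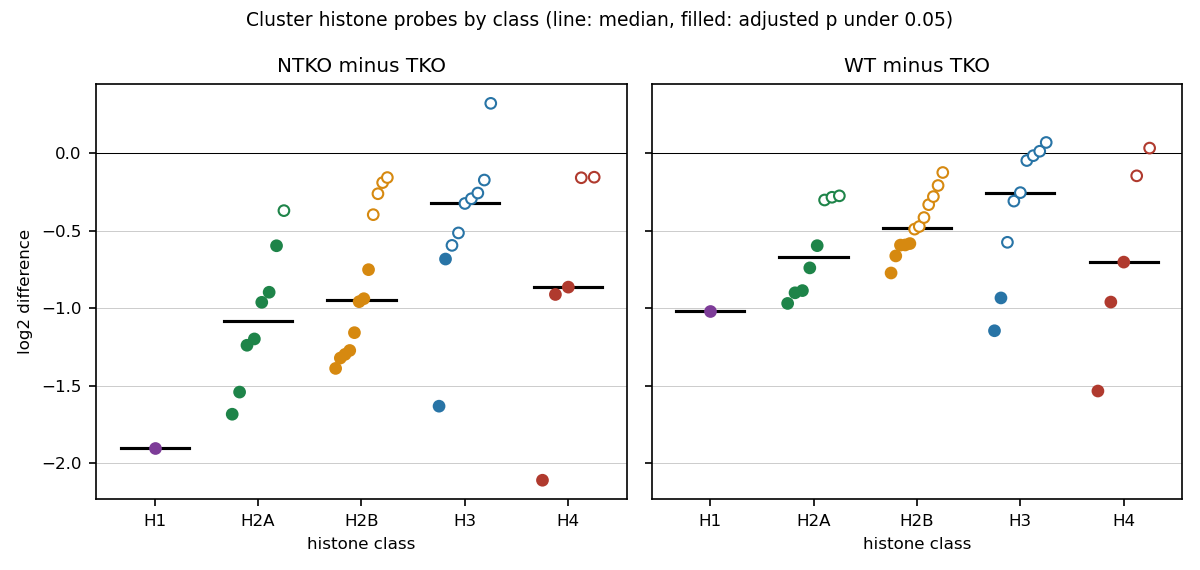
Log2 difference (y axis) of the tested cluster histone probes by histone class (x axis), for NTKO minus TKO and WT minus TKO. Filled points passed an adjusted p under 0.05 and lines are class medians, lowest for H1 (1 probe, −1.90) and nearest 0 for H3 (−0.32) in NTKO minus TKO. The H4 line is the value of H4C5, which passed the filter only through TKO arrays.

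Along the chromosomes, the histone genes of HIST1 fall into 3 groups, split where more than 20 other RefSeq genes lie between neighbours. In the first group, which begins with H2AC1 and ends with H4C8, 18 of 36 probes were tested and 10 were lower in NTKO, with a median of −0.91. Lower probes alternated there with probes that did not pass: H1-2 (−1.90) was followed by H4C3 (−0.15), and after the run H2BC4, H2AC6, H2BC5, H2BC6 and H3C4, all between −1.63 and −1.16, came H2BC7 at −0.39. In the second group, H2BC11, H2AC11 and H2BC12, all 3 tested probes were lower (median −1.20). In group 3, which begins with H2BC13, 5 of 15 probes were tested, 1 of them (H2AC17) was lower in NTKO and 0 in WT, and the median was −0.19. In HIST2 on chromosome 1, 8 of 9 probes were tested and 6 were lower (median −0.83). Neither HIST3 probe was tested. The groups were not tested against each other, and the tested probes of group 3 lay between 4.87 and 7.45, among the dimmer histone probes.

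**Figure D4:**
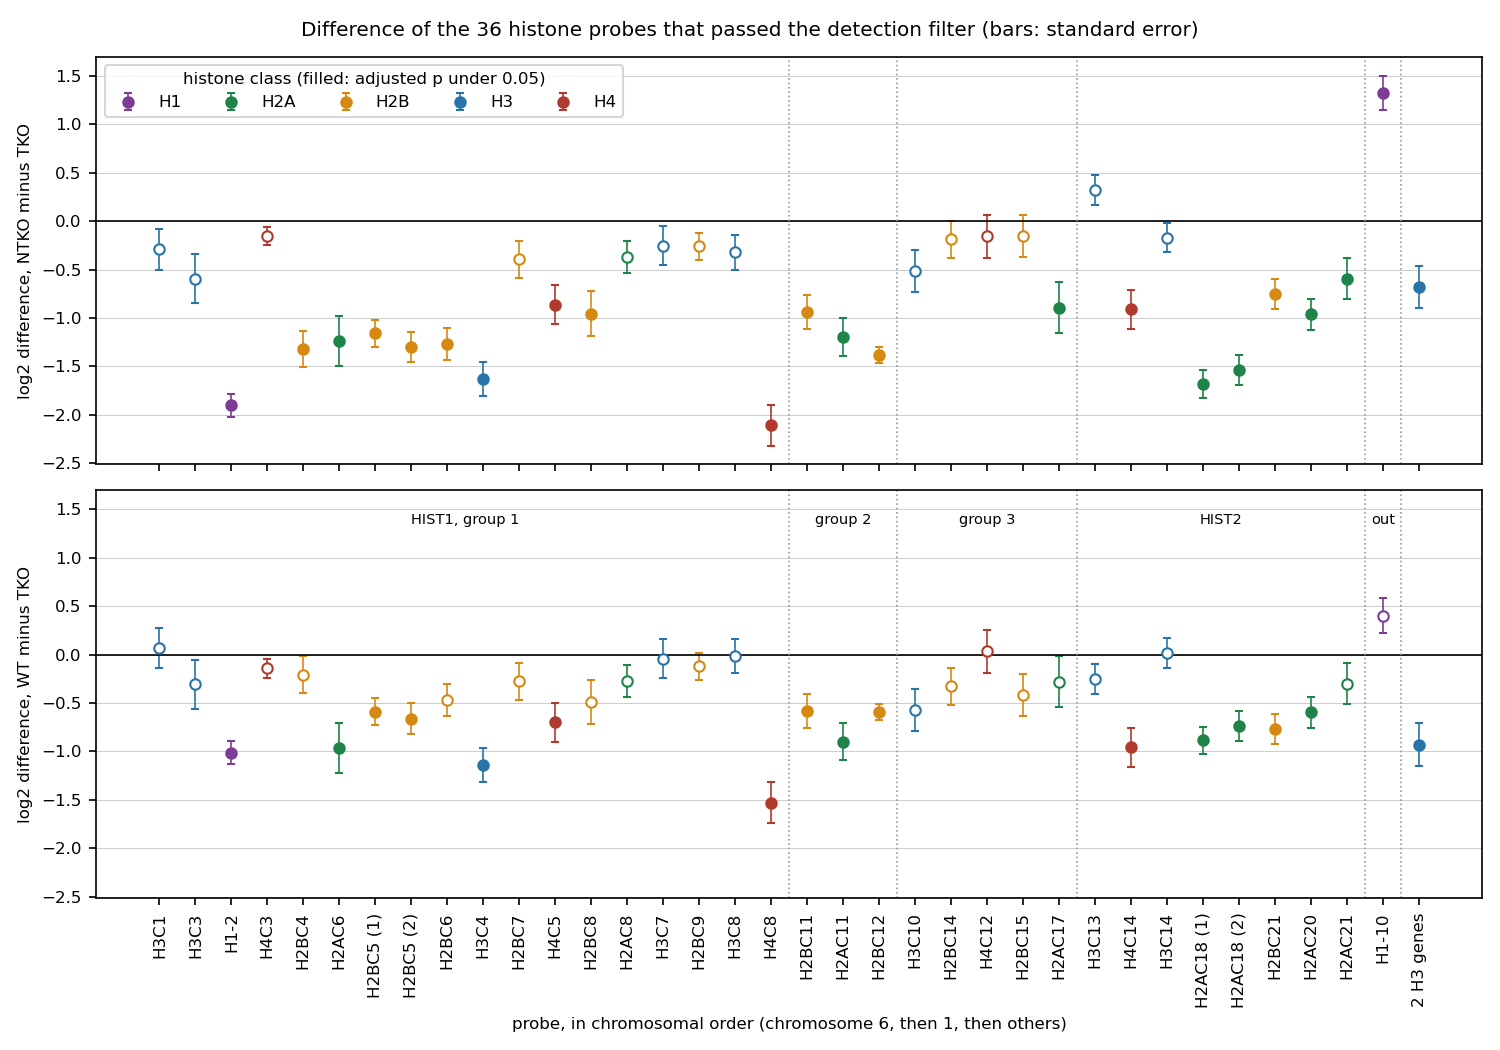
Log2 difference (y axis, bars are the standard error) of the 36 tested histone probes in chromosomal order (x axis), NTKO minus TKO above and WT minus TKO below. Colour gives the histone class, filled points passed an adjusted p under 0.05, and dotted lines part the groups of genes. H4C3 (−0.15) stays near 0 between lower neighbours. H2AC8, H3C7, H2BC9 and H3C8 (−0.37 to −0.26), which lie between the lower H2BC8 and H4C8, did not pass. H1-10 (1.33) is the only filled point above 0.

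H2A and H2B genes often lie head to head and share 1 promoter. Among neighbours that each have a RefSeq promoter, 11 such pairs were found, their starts 194 to 248 bases apart. In 4 pairs both genes were tested. Genes without a RefSeq promoter, H2AC12 among them, could not be placed in a pair, so the count can miss pairs. H2BC4 and H2AC6 gave −1.32 and −1.24 in NTKO minus TKO, but −0.21 and −0.97 in WT minus TKO. H2BC11 and H2AC11 gave −0.94 and −1.20, and H2BC21 and H2AC20 gave −0.75 and −0.96, with all 4 genes lower in WT as well. In the pair H2BC8 and H2AC8 the first was lower (−0.96) and the second, detected on 1 of 3 NTKO arrays, did not pass (−0.37). In 4 further pairs 1 gene was tested.

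A RefSeq promoter was found for 62 of the 67 member genes, those printed among them. The octamer ATTTGCAT occurred in 40.3% of these 62, compared with 1.77% of 35116 promoters of the same length, on either strand. CCAAT occurred in 83.9% against 34.6%, and TATAAA in 64.5% against 11.5%. The octamer was present in 66.7% of the 18 promoters of genes lower in NTKO, 28.6% of the 14 of other tested genes and 30.0% of the 30 of genes not tested. By class it was found in 71.4% of H2A and 77.8% of H2B promoters, 11.1% of H3, 0 of 9 H1 and 0 of 12 H4 promoters. The only H3 promoter with an octamer is that of H3C4, whose window is the same sequence as that of H2AC7, so that 1 of the 12 octamers among genes lower in NTKO lies in a promoter shared with an H2A gene. Within tested H2A and H2B genes it was found in 11 of 13 that were lower and 4 of 5 that were not, while TATAAA was found in 13 of 13 and 2 of 5. These counts take matches on either strand at any position, so they are not counts of a TATA box at the gene's own start. The only TATAAA match of H2BC4, which was lower, lies on the opposite strand. So do the only matches of H2AC8 and H2BC14, which were not lower, and that of H2BC6, which was lower, lies far upstream of the start. Genes that share a promoter are counted separately, and a match of letters is no evidence of binding.

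The MMSET-high lines also differed from each other in 8 histone probes that were lower in NTKO than in WT (background 4.28%). They were H2BC4 (−1.11), H1-2 (−0.88), H2AC18 (−0.80 with both probes), H2BC12 (−0.80), H2BC6 (−0.80) and both H2BC5 probes (−0.64 and −0.56), with limma adjusted p from 0.000138 for H2BC12 to 0.0456. H2B genes made up 5 of the 8 and H3 and H4 genes none. Without single WT or NTKO arrays the count ranged from 3 (without NTKO replicate 3) to 8. Between the MMSET-low clones 0 histone probes passed in either direction (limma; background 0.487% higher and 0.231% lower in TKO1). At an unadjusted p under 0.05, 6 were higher in TKO1 and 0 lower, but the share of all tested probes at that threshold was not counted. Of 36 probes 34 were nominally higher in TKO1 (50.6% of all tested probes were), with a median of 0.18 against 0.00 over all tested probes.

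Among the 38 histone probes that were not tested, 12 were detected on some arrays, and 8 of these on 1 TKO array and no other, which gives no usable fold. They were H1-1, H3C2, H2AC4, H2AC13, H4C11, H2AC15, H3C12 and H1-7. TKO supplied 6 of the 12 arrays and the share over all untested probes was not counted, so no difference between lines is read from these single detections. H4C2, on 4 arrays, and H4C9, on 2, were seen in MMSET-high lines as well, H1-3 on 1 NTKO array and H2AC25 on 1 WT array.

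Genes that act on histone mRNAs and proteins were taken from lists. In the list of factors for histone gene transcription and mRNA processing 19 of 23 genes were tested. Of these 4 were lower and 1 higher in NTKO than in TKO (background 13.8% and 13.7%). In WT 3 were lower and 0 higher (background 5.87% and 9.93%). POU2AF1, the B cell coactivator of octamer factors, was lower in both, at −1.17 (limma, adjusted p = 4.30e-05) and −0.54 (adjusted p = 0.0287). Its values were 8.84, 8.57 and 8.77 in NTKO, 9.63, 9.28 and 9.17 in WT and 9.66 to 10.44 in TKO, so that NTKO, WT and TKO did not overlap, whereas the TKO clones overlapped each other. CCNE1, the cyclin that drives entry into S phase, was lower in NTKO (−0.98, adjusted p = 0.000228) and lay at 0.03 in WT. ZNF473, a zinc finger protein of the histone pre-mRNA processing complex (−0.96, adjusted p = 0.00372), and SYMPK, its scaffold (−0.64, adjusted p = 0.0151), were lower in NTKO, and the exonuclease XRN1 was higher (0.70, adjusted p = 0.0117). SLBP, which binds the stem-loop, did not pass (−0.44, adjusted p = 0.0580), nor did NPAT, the coactivator of histone transcription in S phase (−0.23, adjusted p = 0.470). Without NTKO replicate 2, 8 genes of the list were lower and 1 higher, in a fit where the share of all tested probes called lower also rose, from 13.8% to 22.9%.

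DNA replication genes, which are also used in S phase, included some that were lower and some that were higher. Of 33 tested, 8 were lower and 3 higher in NTKO than in TKO (background 13.8% and 13.7%), with a median of −0.17. In WT 1 was lower (background 5.87%). Leaving out NTKO replicate 2 gave 11 lower and 5 higher (background 22.9% each way). The thymidylate synthase gene TYMS (−0.53, limma adjusted p = 0.00177), the ligase gene LIG1 (−0.58, adjusted p = 0.00543) and POLD1 (−0.81, adjusted p = 0.00612), which encodes a DNA polymerase, were lower. PRIM1, the primase subunit (0.82, adjusted p = 0.00237), and GINS2, of the replicative helicase (0.80, adjusted p = 0.00242), were higher. Of 17 tested histone chaperones 4 were lower in NTKO (ASF1A, RBBP4, CABIN1 and IPO4, −1.03 to −0.36, background 13.8%) and 0 in WT (background 5.87%). Without NTKO replicate 2, 8 were lower (background 22.9%).

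Histone genes outside the canonical clusters, which are mostly expressed through the cell cycle and polyadenylated, included 9 tested genes. Of these 4 were lower in NTKO (background 13.8%) and 1 in WT (background 5.87%). H2AJ, an H2A variant gene, differed by −1.43 (limma, adjusted p = 4.99e-05) in NTKO and −0.85 (adjusted p = 0.00604) in WT. It read 7.79, 7.90 and 7.57 in NTKO, 8.01, 8.53 and 8.45 in WT and 8.68 to 9.61 in TKO, without overlap. H3-5, H3-3B and H2AZ2 were lower in NTKO (−0.77, −0.47 and −0.42), while H3-3A (−0.03) and H2AZ1 (−0.01) lay near 0. The 5 cluster genes listed as giving polyadenylated transcripts too, H1-2, H2AC6, H2BC5, H2BC12 and H2BC21, were lower in both NTKO and WT, with a median of −1.24 in NTKO. That list holds members already counted above.

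Non-histone genes that lie among the HIST1 genes were followed as well. Of 19 on the array 11 were tested, 2 of them were lower and 1 higher in NTKO than in TKO, and their median was 0.06 (background 13.8% lower and 13.7% higher). The balance turned without NTKO replicate 2, to 1 lower and 3 higher (background 22.9% each way). BTN2A2, a butyrophilin gene (−1.03, limma adjusted p = 0.00253), and ZNF184 (−0.57, adjusted p = 0.0262) were lower in both NTKO and WT, and the peptidase gene PRSS16 was higher in NTKO (1.74, adjusted p = 0.00473).

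Across the series, mean probe intensity per array was 181 to 300, and 14166 to 16684 probes were detected. NSD2 itself was higher in NTKO (0.59, limma adjusted p = 0.0166) and WT (0.69, adjusted p = 0.0104) than in TKO. All 7 plasma cell markers were tested. In NTKO compared with TKO 4 were higher and 1 lower (median 0.62, background 13.7% and 13.8%). In WT 3 were higher and 0 lower (median 0.18, background 9.93% and 5.87%). Higher in both were SDC1 (1.32 and 1.51), CD38 (2.95 and 1.10) and TNFRSF17 (0.64 and 0.66; limma, adjusted p at most 0.0176), IRF4 was higher (0.62) and MZB1 lower (−0.85) in NTKO alone. None of 3 T cell and 3 stromal markers passed the filter, and of 3 myeloid markers 1, CD68, did, with −0.13 in NTKO and −0.17 in WT (adjusted p = 0.684 and 0.649). Of 3 erythroid markers, HBB was detected on all 12 arrays and followed the histone pattern (5.37 to 5.68 in NTKO, 6.27 to 6.38 in WT, 7.06 to 8.03 in TKO), while HBA1 was detected on none, and the part of these marker differences in the histone values was not tested.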

How the data were processed

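Total RNA of the 4 KMS11 lines had been amplified with biotin-UTP from the poly(A) end and measured on Illumina HumanWG-6 v3 BeadChips with 3 arrays for each line. Groups and replicate numbers come from the sample titles. The deposited scanner export gives per array a background-subtracted intensity and a detection p-value for 48803 probes, exported by the authors with GenomeStudio (version not given in the sources used here). A second deposited table, with the authors' normalised intensity values, served as an alternative.

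Background correction, quantile normalisation and log2 transformation of the export used neqc (limma 3.58.1, R 4.3.3, offset 16). Gene names came from the platform annotation, updated through RefSeq (GRCh38.p14), whose gene table gave current names and gene order only. Of the probes 27578 had 1 gene, 13 several and 21212 none. The filter kept probes with a detection p-value under 0.05 on each of the 3 arrays of any line. Line means of the 4 lines were estimated in 1 linear model over the 12 arrays (eBayes with trend and robust, statmod 1.5.0), two-sided, with Benjamini-Hochberg adjustment over the 15596 kept probes. The method was tested on simulated data. Arrays, not beads, limit the precision.

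Every member probe that passed in NTKO minus TKO, WT minus TKO or NTKO minus WT is named with its values. Listed genes are represented by their brightest kept probe. Members and lists were chosen with earlier results of these data known. Alternatives changed the filter, background correction, normalisation, variance prior, unit of the test, arrays and replicate block, and used the methods' two-sample test. Probe sequences were not used here, so cross-hybridisation between near-identical histone genes could not be checked.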

Additional observations from a re-analysis of the deposited data

How the results depend on the processing

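Counts over the histone probes changed little under most alternatives, although the share of all kept probes called differed between them. The 21 lower probes in NTKO minus TKO ranged from 18 (detected on all 12 arrays, and 1 probe per gene) to 22, except that the methods' t-test gave 11 at its threshold of 0.002 and 17 after Benjamini-Hochberg. That t-test was run here on 3 NTKO and 6 TKO arrays. The study's methods describe 6 replicates of each and another probe filter. Leaving out single arrays in the limma fit gave 19 to 22 lower and 1 higher. The share of all kept probes called in either direction was 27.5% in the main fit. It ran from 16.9% without NTKO replicate 1 to 45.7% without NTKO replicate 2. In WT minus TKO the 16 lower probes became 8, and the 0 higher 1 (H1-10, 0.68, adjusted p = 0.0291), with median centring, which moved the median of all kept probes to 0.15. Leaving out single arrays gave 11 to 18 lower and 0 to 1 higher, and the 1 was H1-10 without NTKO replicate 2. The share of all kept probes called in either direction was 15.8% in the main fit. It ran from 10.1% without WT replicate 1 to 24.0% without NTKO replicate 2. The 6 probes lower in all 4 pairs became 1 with median centring and 3 to 6 without single arrays. For NTKO minus WT the 8 lower probes became 3 to 8 and the 1 higher probe 0 to 1 without single arrays, and the higher count was 0 with median centring and 2 with cyclic loess. No share of all kept probes is given for the 4 pairs or for NTKO minus WT in these alternatives. H4C3 reversed with median centring, to 0.057 in NTKO minus TKO and 0.26 in WT minus TKO. The cause was not tested. In WT minus TKO, H2BC11 lost its call without any of WT replicates 1 to 3 or of replicates 1 and 2 of TKO1 and TKO2 (adjusted p = 0.0592 to 0.114), and H4C5, H2AC20, H2AC6, the 2-gene probe and H2BC5 without 1 or 2 of the WT arrays (adjusted p = 0.0505 to 0.148). Replicate numbers were not taken to pair the arrays, because deviations of same-numbered arrays of different lines correlated at −0.14 to 0.50 and passed 0.1 in only 6 of 18 pairs. Their median was 0.06 against −0.02 for different numbers, and 8 of 12 arrays were closest to an array of their own number, so some shared variation by number is possible. The median histone probe was lowest on replicate 3 in both TKO1 (−0.12) and TKO2 (−0.30), but not in WT or NTKO. With a replicate block 22 probes were lower and 1 higher in NTKO minus TKO, and 6 were lower in all 4 pairs. The share of all kept probes called in NTKO minus TKO was 29.9% there. Dim probes near the detection limit, such as H4C5 and the 2-gene probe, are measured least well.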
